A study of Mus musculus with 19 samples.

Results

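The genes described here are 40 cell cycle and DNA replication genes: cyclins and their kinases, the proteins that license and copy DNA, the enzymes that supply deoxynucleotides, and the proteins of the kinetochore, the spindle and mitotic exit. Each gene was read from the probe set with the highest mean over 19 arrays among the probe sets that carry its symbol alone. By this rule 39 of the 40 genes were measured, out of 18193 genes in all. No level is given for Ccnb1, a mitotic cyclin, which enters the promoter counts over 32 genes alone.

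RNA was measured in cortical projection neurons of C57BL/6 mice on 19 Affymetrix arrays of 1 mouse design. Callosal projection neurons (CPN), whose axons cross to the other hemisphere, and corticospinal motor neurons (CSMN), whose axons run to the spinal cord, were each sampled 4 times: before birth on embryonic day 18 (E18), and after birth on day 3 (P3), day 6 (P6) and day 14 (P14). The remaining group was neurons projecting to the tectum (CTPN), which were taken on P14 alone. There were 2 arrays for every group but CSMN at P3, with 3, and the series describes replicates as independent collections. No group carries a named allele or drug: in all of them the neurons were marked by fluorescent microspheres taken up from the axon's target field, dissociated and sorted for that fluorescence, and their RNA was amplified in 2 rounds before labelling. In such sorted bulk samples, fewer cells of a type and less RNA per cell cannot be told apart.

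A dividing cell passes through a gap phase in which D-type and E-type cyclins act with Cdk4 and Cdk2, a phase of DNA synthesis in which the MCM helicase and Pcna work at the replication fork, and a mitosis driven by Cdk1 with cyclins A and B. In the embryonic cortex this programme belongs to radial glia and intermediate progenitors near the ventricle, which divide, whereas projection neurons have left the cycle for good. Mitotic genes often carry a cell cycle genes homology region (CHR) together with CCAAT boxes in their promoters, and many replication genes carry E2F sites.

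RefSeq promoters of 300 bases (250 before and 50 after the start, build GRCm38.p6) were matched for 32 of the 40 genes. Ccna2, Ccnd1, Ccnd2, Ccne2, Mcm4, Aurkb, Tpx2 and Gmnn were not matched. The letters searched, on both strands, were TTTGAA for the CHR, CCAAT for the CCAAT box, and TTTCCCGC, TTTCGCGC, TTTGCCGC and TTTGGCGC for E2F; E2F matches on opposite strands can overlap, and a gene was counted once. The CHR letters were found in 14 of the 32 genes and in 17.9% of all 32851 promoters of this length. The CCAAT letters were found in 25 of the 32 genes and in 37.4% of all promoters, and both together in 14 genes and in 7.0% of all promoters. E2F letters were found in 8 of the 32 genes and in 2.3% of all promoters. A match is a run of letters and not a measured binding site.

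The 160 bases just before the start are shown for 6 genes, with the searched letters in capitals and the sequence read 5′ to 3′ on the gene's own strand. Cdk1, Cdc20 and Ube2c stand for the mitotic genes with a CHR match, Mcm6 for the replication genes with E2F matches, Pcna for the genes above the highest array median in all arrays, and Rrm2 for a gene that fell between P3 and P14 in both neuron types.
Cdk1 (the mitotic kinase, chr10:69352913-69353072, minus strand): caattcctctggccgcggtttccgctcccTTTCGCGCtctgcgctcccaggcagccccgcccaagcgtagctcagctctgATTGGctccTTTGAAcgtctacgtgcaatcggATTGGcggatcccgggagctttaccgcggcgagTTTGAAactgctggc
Cdc20 (activator of the anaphase-promoting complex, chr4:118437344-118437503, minus strand): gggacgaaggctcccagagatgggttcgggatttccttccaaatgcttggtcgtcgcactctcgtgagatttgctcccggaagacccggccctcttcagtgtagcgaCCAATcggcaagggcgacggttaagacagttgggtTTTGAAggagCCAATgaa
Ube2c (ubiquitin-conjugating enzyme of the same complex, chr2:164769769-164769928, plus strand): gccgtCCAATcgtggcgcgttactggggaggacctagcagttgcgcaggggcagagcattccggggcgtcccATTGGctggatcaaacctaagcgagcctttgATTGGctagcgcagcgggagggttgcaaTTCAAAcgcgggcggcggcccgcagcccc
Mcm6 (subunit of the replicative helicase, chr1:128359706-128359865, minus strand): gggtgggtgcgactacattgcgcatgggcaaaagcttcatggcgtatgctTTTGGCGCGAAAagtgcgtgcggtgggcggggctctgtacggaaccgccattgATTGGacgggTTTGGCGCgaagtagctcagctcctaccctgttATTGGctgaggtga
Rrm2 (small subunit of ribonucleotide reductase, chr12:24708094-24708253, plus strand): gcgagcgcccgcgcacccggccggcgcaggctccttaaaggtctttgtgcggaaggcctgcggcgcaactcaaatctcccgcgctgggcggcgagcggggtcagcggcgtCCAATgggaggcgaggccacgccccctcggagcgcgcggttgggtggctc
Pcna (the sliding clamp of the replication fork, chr2:132253181-132253340, minus strand): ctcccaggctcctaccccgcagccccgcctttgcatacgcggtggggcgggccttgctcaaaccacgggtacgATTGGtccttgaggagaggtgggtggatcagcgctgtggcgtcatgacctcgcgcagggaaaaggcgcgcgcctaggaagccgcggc

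Array medians lay between 6.42 and 6.62 on the deposited log2 scale, and the highest of them, 6.62, was used as a bound for a low level. It is no detection call, because probe sets differ in brightness, so levels of different genes are not ranked here. The number of arrays limits the precision, and all standard errors are those of the shared model. The replicates of CSMN at P14 stood apart, with a correlation of 0.904 over genes against at least 0.949 in the other groups. Calls of the 39 genes were checked without each array, and those of other genes were not. By array median, the markers fixed for projection neurons matched the labels. The median of Bcl11b, Fezf2 and Crym was 10.42 to 12.47 in CSMN, 11.57 to 11.79 in CTPN and 7.19 to 9.41 in CPN. That of Cux2, Lmo4 and Lhx2 was 8.99 to 10.15 in CPN, 5.91 to 8.21 in CSMN and 6.87 to 8.20 in CTPN. Gene by gene, Bcl11b, Fezf2 and Lhx2 did not overlap between CPN and CSMN, and the rest did. Crym was 8.28 and 8.37 in CSMN at E18 and up to 9.40 in CPN. Lmo4 at E18 was 8.99 and 8.15 in CPN and 8.18 and 7.20 in CSMN. Cux2 reached 9.23 in CSMN at P3 and was 8.44 and 9.91 in CPN at E18. The array median of 6 postmitotic neuron markers was 11.28 to 12.72 in all 19 arrays.

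At E18 the CPN and CSMN arrays differed in most of these genes. In CPN minus CSMN, 30 of the 39 genes were higher in CPN, 1 was lower (Tpx2) and 8 did not pass the test (limma, adjusted p under 0.05 over all genes), where 8.94% of all genes were higher and 3.98% lower. The median difference was 2.13 on the log2 scale for the 39 genes and -0.10 for all genes. The largest differences were those of Top2a, the topoisomerase that untangles replicated chromosomes, at 4.91 ± 0.29 (SE, 2 arrays against 2, adjusted p = 1.07e-07), and of Mki67, the Ki-67 proliferation antigen, at 4.68 ± 0.24 (adjusted p = 5.46e-08). The size for Top2a is that of its brightest probe set: the others had means of 6.94 and 5.86 in CPN and 6.01 and 6.12 in CSMN at E18. Probe sets marked in their names for shared probes are here all those ending in _a_at, _s_at or _x_at. Without them the difference was 0.93, that of the Top2a probe set with means of 6.94 and 6.01. The brightest ends in _a_at, and whether any of its signal came from other genes was not tested. Against the mean of the 8 other groups, a comparison that shares the CPN E18 arrays with the first, 33 of the 39 genes were higher and 0 lower in CPN at E18, where 10.2% of all genes were higher and 9.73% lower. At an unadjusted p under 0.05, 34 were higher and 0 lower.

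Progenitor markers moved with this group. Of the 10 radial glia markers, 8 were higher in CPN than in CSMN at E18 (Fabp7 by 8.35 ± 0.72, Sox2 by 7.22 ± 0.73), and Nes and Pax6 did not pass the test (-0.58 ± 0.31 and -0.03 ± 0.30). The array median of the 10 was 10.60 to 11.26 in CPN at E18 and 6.63 to 8.16 in the 17 others, and their summed signal was 33734 to 37917 against 1246 to 8812. All 6 intermediate progenitor markers were higher, with summed signals of 10312 to 10656 against 438 to 1130. Eomes, a transcription factor that marks intermediate progenitors, read 11.42 and 10.77 in CPN at E18 and at most 5.31 elsewhere, and Neurog2, a proneural factor, 11.43 and 11.47 against at most 5.70. Astrocyte markers were higher for 4 of 7 genes, with array medians of 9.54 to 9.80 against 6.73 to 7.89. Of 6 microglia markers 3 were higher (C1qa, Csf1r and Aif1), C1qa at 9.54 and 8.42 against 6.52 and 6.18 in CSMN at E18; their summed signal was 2466 to 6146 in CPN at E18, 973 to 1278 in CSMN at E18 and up to 5157 in the 17 others. Of 6 oligodendrocyte lineage markers 1 was higher, Olig1 at 9.34 and 9.26 against 5.42 and 6.07. Of the interneuron markers, Dlx1 was 6.66 and 9.17 in CPN and 5.85 and 5.90 in CSMN at E18. Lhx6 and Slc32a1 also lay higher in CPN, Gad2 lay lower, and Gad1 and Dlx2 overlapped. Of the endothelial markers, Cldn5 was 8.21 and 7.08 against 6.63 and 6.33, Flt1 lay lower in CPN, and Kdr, Pecam1 and Cdh5 overlapped. Postmitotic neuron markers had medians of 11.28 to 11.58 in the CPN E18 arrays and 11.40 to 12.72 in the others. Gene by gene at E18, Snap25 was 8.74 and 9.09 in CPN against 10.88 and 10.47 in CSMN. Tubb3 (11.63 and 11.28 against 12.82 and 12.04) and Stmn2 (12.36 and 12.36 against 13.25 and 12.86) also lay lower in CPN, and Dcx, Map2 and Rbfox3 overlapped. The part of these cells in the results on the 39 genes was not tested.

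**Figure D1:**
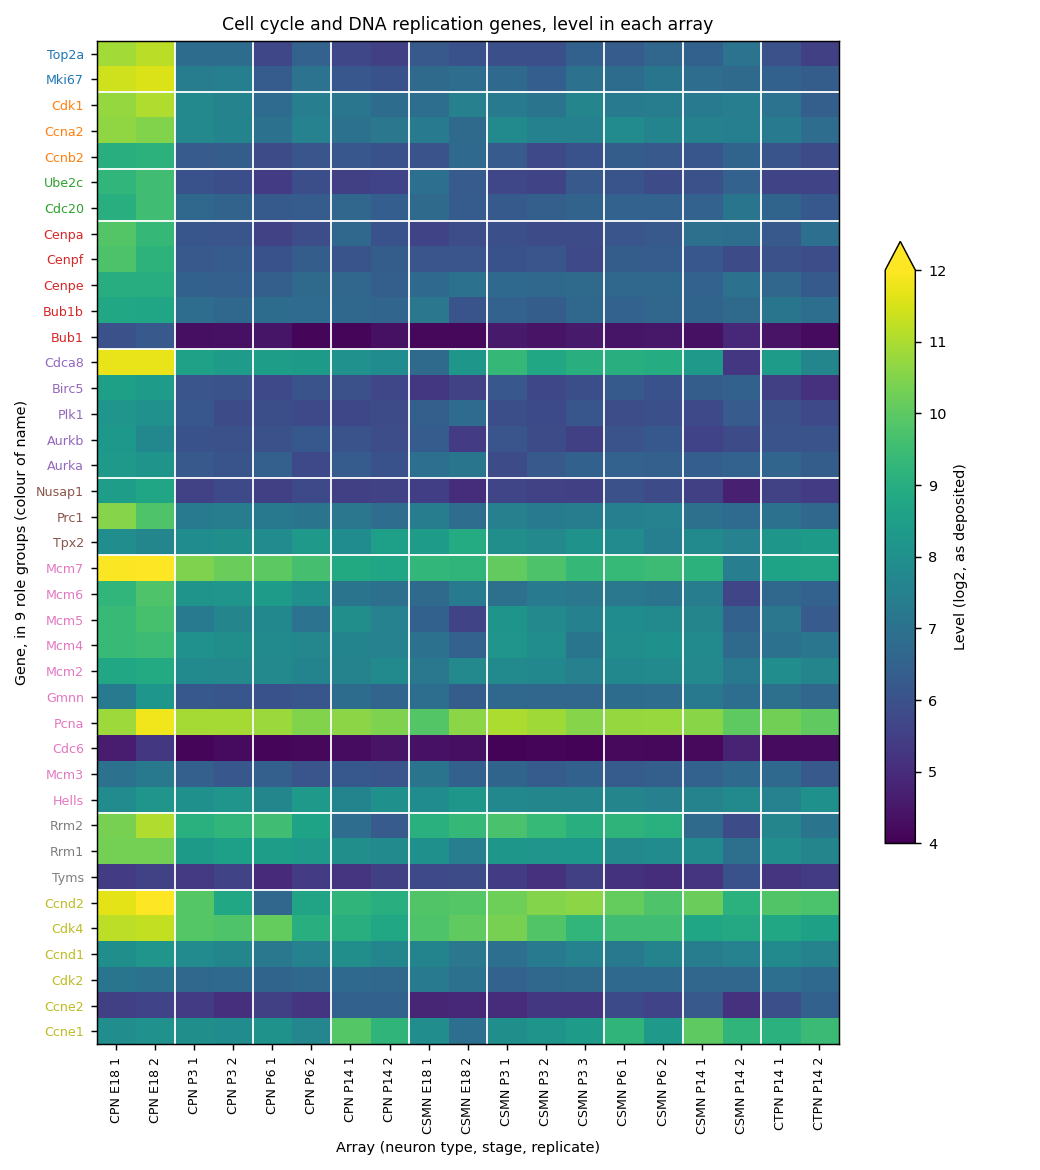
Level of each of the 39 genes (rows, in 9 role groups set apart by white lines, ordered within a group by the difference between CPN at E18 and the other groups) in each of the 19 arrays (columns, groups set apart by white lines), as a colour on the deposited log2 scale. The 2 CPN E18 columns on the left are the brightest for 30 of the 39 genes, while Pcna and Cdk4 stay bright across the row and Rrm2 darkens at P14.

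Mki67 read 11.41 and 11.57 in CPN at E18. Later CPN arrays gave 7.40 and 7.45 (P3), 6.32 and 7.04 (P6), 6.16 and 6.01 (P14). CSMN arrays gave 6.75 and 6.87 (E18), 6.72, 6.39 and 7.03 (P3), 6.83 and 7.12 (P6), 6.87 and 6.75 (P14), and CTPN 6.48 and 6.35. The lower CPN E18 array stood 3.96 log2 units above the highest of the others, and the next highest arrays were CPN at P3. Top2a was 10.89 and 11.16 in CPN at E18 and ran from 5.50 to 7.04 (median 6.23) in the 17 others, without overlap.

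All 3 measured S and M phase genes were higher in CPN at E18. Cdk1, the kinase whose activation starts mitosis, was 10.73 and 11.06 in CPN at E18, 6.89 and 7.48 in CSMN at E18, and 6.41 to 7.78 (median 7.30) over the 17 other arrays. Its difference at E18 was 3.71 ± 0.28 (adjusted p = 9.29e-07). Ccna2, the cyclin of S phase and early mitosis, was 10.67 and 10.49 against 7.29 and 6.76 in CSMN (3.56 ± 0.24), and Ccnb2, a mitotic cyclin, was 9.04 and 9.13 against 6.05 and 6.74 (2.69 ± 0.24).

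Cdc20 and Ube2c, which tag mitotic cyclins and securin for destruction, were both higher in CPN at E18. Ube2c was 9.25 and 9.56 in CPN at E18 and 5.40 to 6.92 (median 5.91) in the 17 others, with a difference of 2.79 ± 0.27 from CSMN at E18. Cdc20 was 9.04 and 9.55 against 6.20 to 7.11 (median 6.50), with a difference of 2.74 ± 0.24. The highest of the other arrays was CSMN at E18 replicate 1 for Ube2c and CSMN at P14 replicate 2 for Cdc20.

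All 5 kinetochore and checkpoint genes were higher in CPN at E18. Cenpa, the histone variant that marks centromeres, was 9.86 and 9.32 in CPN at E18 against 5.63 and 5.89 in CSMN (3.83 ± 0.26) and ran from 5.59 to 6.96 (median 6.11) in the 17 others. The brightest Cenpa probe set ends in _a_at too. Without the probe sets marked for shared probes, the Cenpa call at E18 and that of its fall to P3 were lost, at 0.70 and -0.98. These came from a probe set with means of 7.22 in CPN and 6.52 in CSMN at E18. Another Cenpa probe set ran the other way, with means of 5.40 in CPN and 6.91 in CSMN at E18. Bub1, a checkpoint kinase, had the smallest contrast of the group with the other 8 groups (1.73 ± 0.15): it was 5.97 and 6.24 in CPN at E18 and 4.10 to 4.91 (median 4.37) elsewhere, so the groups did not overlap although all 19 arrays lay below the bound. Cenpf, Cenpe and Bub1b, of the outer kinetochore and the checkpoint, differed by 3.35 ± 0.22, 2.13 ± 0.21 and 2.11 ± 0.27.

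The 5 mitotic kinases and chromosomal passengers were all higher in CPN at E18. Cdca8 (borealin), a passenger subunit, was 11.74 and 11.72 in CPN at E18, 6.78 and 8.23 in CSMN at E18 and 5.31 to 9.33 (median 8.42) in the 17 others, with the largest difference of the group (4.23 ± 0.66) and the largest error. Aurka, the centrosomal Aurora kinase, had the smallest contrast with the other 8 groups (1.85 ± 0.18): it was 8.31 and 8.15 in CPN at E18 and 6.92 and 7.10 in CSMN at E18, the highest values outside CPN at E18. Its difference from CSMN at E18 (1.22 ± 0.25) lost the call with averaged probe sets, array weights or the compared groups alone, and its other probe set had means of 5.20 and 5.94. Plk1 showed the same order, at 8.17 and 8.05 in CPN and 6.42 and 6.81 in CSMN at E18 with 5.74 to 6.30 in all postnatal arrays. Birc5 (survivin) and Aurkb, both passenger proteins, differed by 3.06 ± 0.21 and 2.12 ± 0.28.

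Of the spindle genes, Nusap1, which bundles spindle microtubules, was 8.49 and 8.74 in CPN at E18 and 4.71 to 5.98 (median 5.54) in the 17 others, and its difference from CSMN at E18 was 3.35 ± 0.24. Prc1, which crosslinks the spindle midzone, was 10.54 and 9.80 against 6.70 to 7.56 (median 7.23), with a difference of 3.04 ± 0.24. Tpx2, which targets Aurka to the spindle, went the other way on its brightest probe set. It was 7.92 and 7.68 in CPN and 8.42 and 8.92 in CSMN at E18, a limma difference of -0.87 ± 0.25 (adjusted p = 0.0364), and this call was lost when either CPN E18 array, either CPN P3 array or CSMN E18 replicate 2 was left out. The mean of its 4 probe sets gave 0.86 in place of -0.87.

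On their brightest probe sets the 10 licensing and fork genes were less uniform: 7 were higher in CPN at E18 and 3 did not pass the test. The median difference was 1.23. Mcm7, a helicase subunit with the group's largest contrast against the other 8 groups (2.77 ± 0.29), was 11.94 and 12.17 in CPN at E18 and 9.29 and 9.24 in CSMN at E18. Mcm5 was 9.42 and 9.66 in CPN against 6.47 and 5.63 in CSMN (3.49 ± 0.40), and Mcm4, Mcm6 and Mcm2 differed by 2.68 ± 0.33, 2.48 ± 0.39 and 1.33 ± 0.23. Gmnn (geminin), which blocks relicensing, was 7.32 and 8.20 against 6.90 and 6.35 (1.14 ± 0.26), a call lost without replicate 2 of CPN or of CSMN at E18 or with the compared groups alone. With those groups alone the Mcm2 and Pcna calls were lost too. That of Pcna was also lost with quantile normalization, cyclic loess or array weights. Pcna was 10.82 and 11.82 against 9.86 and 10.61 (1.08 ± 0.32, adjusted p = 0.0374), and lost this call when either CPN P3 array, either CPN P14 array, CSMN P3 replicate 2, either CSMN P6 array, CPN E18 replicate 2 or CSMN E18 replicate 1 was left out. Cdc6, which loads the helicase, was 4.65 and 5.30 against 4.38 and 4.34 and lay below the bound in all 19 arrays. Hells, a chromatin remodeller with the smallest contrast of the group (0.18 ± 0.18), was 7.87 and 8.16 in CPN and 7.90 and 8.23 in CSMN at E18. Mcm3 differed by 0.32 ± 0.24. Other probe sets of both genes disagreed with each other. Means in CPN and CSMN at E18 were 8.85 and 5.49 for a Mcm3 one and 7.45 and 4.11 for a Hells one. Yet another of each gave 4.83 and 5.13 for Mcm3 and 4.50 and 4.71 for Hells.

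Of the deoxynucleotide enzymes, Rrm1, the large subunit of ribonucleotide reductase, was 10.33 and 10.34 in CPN against 8.0 and 7.43 in CSMN at E18 (2.62 ± 0.25), and Rrm2 was 10.36 and 11.06 against 9.07 and 9.33 (1.52 ± 0.38). The Rrm2 call was lost without CPN E18 replicate 2 or CSMN E18 replicate 1. Tyms, thymidylate synthase, was 5.40 and 5.56 against 5.78 and 5.83, and its 19 values, from 4.97 to 6.00, lay below the bound. The G1 genes differed least. Ccnd2 (cyclin D2) was 11.67 and 12.41 against 9.83 and 9.90 (2.17 ± 0.52), and Cdk4 was 11.21 and 11.27 against 9.79 and 10.04 (1.33 ± 0.33). The Ccnd2 call was lost without CPN E18 replicate 2 or either CSMN E18 array, and the Cdk4 call without either CPN E18 array or CSMN E18 replicate 1. Array weights ended the calls of Ccnd2, Cdk4 and Rrm2, and leaving out the probe sets marked for shared probes those of Cdk4 and Rrm2. Ccnd1, Ccne1, Ccne2 and Cdk2 did not pass the test, with differences of 0.69 ± 0.24, 0.57 ± 0.37, 0.69 ± 0.28 and -0.08 ± 0.17.

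**Figure D2:**
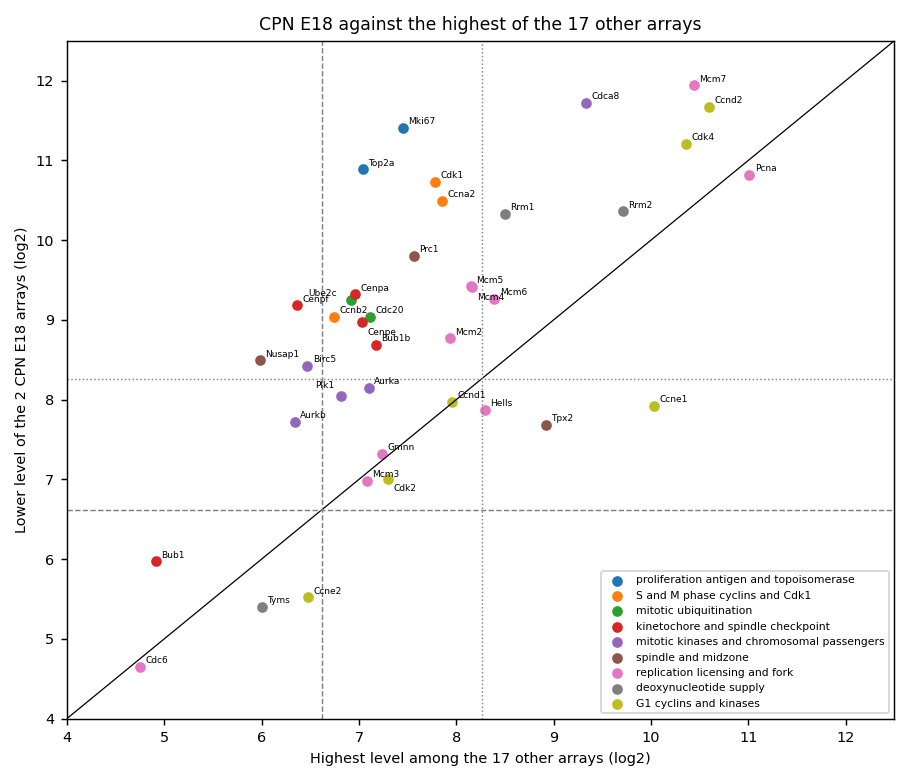
Lower of the 2 CPN E18 levels (vertical axis, log2) against the highest level among the 17 other arrays (horizontal axis, log2) for the 39 genes, coloured by role. Points above the diagonal are the 30 genes with both CPN E18 arrays above all others; dashed lines mark the bound of 6.62 and dotted lines the stricter 8.26, and Cenpf, Aurkb, Birc5 and Nusap1 sit left of the dashed vertical line and above the dashed horizontal one.

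In 30 of the 39 genes both CPN E18 arrays lay above the 17 other arrays, which held for 6.87% of all genes. Of these, 4 were confined to the CPN E18 arrays by the bound of 6.62, with both arrays above it and the 17 others below: Cenpf, Aurkb, Birc5 and Nusap1 (0.407% of all genes). Their highest values elsewhere were 6.36, 6.34, 6.47 and 5.98, and the nearest gene outside the class, Ccnb2, reached 6.74. Other probe sets of Cenpf and Nusap1 did not have both CPN E18 arrays highest. Those of Cenpf had means of 6.58 and 6.05 in CPN at E18 and 6.31 and 5.35 in the 17 others. That of Nusap1 had 5.58 and 5.23. With the highest 75th percentile of an array, 8.26, as the bound, 17 genes were confined, among them Mki67, Top2a, Cdk1, Ccna2, Cdc20, Ube2c and Mcm5. The class therefore depends on the bound, while the separation from the other arrays does not use it. Of the remaining genes with CPN E18 highest, 7 had 1 to 5 of the 17 other arrays above 6.62 (Top2a, Cenpa, Ccnb2, Aurka, Plk1, Cdc20 and Ube2c), 10 had 6 to 16 and 8 had all 17, and Bub1 had none and was itself below it. Averaging every probe set of a gene, in place of taking the brightest, gave 10 confined genes.

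Promoter letters were counted on both sides of this separation. Of the measured genes with a matched promoter, 24 had CPN E18 highest, and 14 of these had a CHR match, 21 a CCAAT match and 4 an E2F match (Cdk1, Mcm5, Mcm6 and Mcm7). The other 7 genes had a CHR match in 0, a CCAAT match in 3 (Cdk2, Mcm3 and Pcna) and an E2F match in 4 (Cdk2, Mcm3, Cdc6 and Hells). Birc5, Ccne1, Cdk4, Nusap1 and Tyms had none of the letters in the window. The split is that of the brightest probe sets. Another Mcm3 probe set showed the CPN E18 peak, with means of 8.85 there and 5.59 in the 17 others. So did a Hells one, at 7.45 and 4.42. The further probe sets of Mcm5 and Mcm6 were split. Those with means of 6.75 and 5.77 (Mcm5) and 9.89 and 6.50 (Mcm6) showed the peak. Those with means of 5.06 and 5.07 (Mcm5) and 4.16 and 4.14 (Mcm6), low throughout, did not. No test was made of these counts.

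From E18 to P3 most of these genes fell in CPN. Of the 39 genes, 30 fell, 0 rose and 9 did not pass the test, with a median of -1.96, where 4.22% of all genes fell and 3.86% rose; 0 members rose at an unadjusted p under 0.05. The 6 deepest falls were those of Top2a (-4.19 ± 0.29), Mki67 (-4.07 ± 0.24), Cenpa (-3.47 ± 0.26), Ube2c (-3.44 ± 0.27), Cdca8 (-3.23 ± 0.66) and Cdk1 (-3.21 ± 0.28). Ccnd1, Ccne1, Ccne2, Cdk2, Mcm3, Pcna, Tyms, Tpx2 and Hells did not pass the test. The fall of Mcm6 (-1.37 ± 0.39) passed in 2 of 19 fits that each left out 1 array. Those of Cdk4 and Mcm4 were lost without any 1 of the 4 arrays compared, those of Mcm2, Rrm2 and Cdc6 without CPN E18 replicate 2 or either CPN P3 array, and Cdc6 also without either CSMN P6 array. Those of Ccnd2 and Mcm7 were lost without CPN E18 replicate 2 or CPN P3 replicate 2, that of Mcm5 without CPN P3 replicate 1 and that of Cdca8 without CPN P3 replicate 2. The falls of Cdk4 and Rrm2 were also lost without the probe sets marked for shared probes. Over the same days 7 of 10 radial glia and 6 of 6 intermediate progenitor markers fell in CPN, by medians of -2.56 and -4.05, and their part in the fall was not tested.

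In CSMN, which started low, 1 gene rose from E18 to P3, 2 fell and 36 did not pass the test, where 7.93% of all genes rose and 2.46% fell. Mcm5 rose from 6.47 and 5.63 to 8.15, 7.78 and 7.53, by 1.77 ± 0.36 (adjusted p = 0.00898), without overlap. That call was lost without CSMN E18 replicate 2 (adjusted p = 0.0898) and when probe sets marked in their names for shared probes were left out. The group means of the other Mcm5 probe sets at E18 and P3 were 5.63 and 5.83 for one and 5.04 and 4.94 for the other. Aurka fell by 0.82 ± 0.22 and Plk1 by 0.67 ± 0.20, and these calls held in 13 and 4 of 19 fits that each left out 1 array. Radial glia markers had array medians of 6.65 to 6.71 in CSMN at E18 and 7.33 to 7.58 at P3, and Fabp7 among them rose by 5.29 ± 0.66. Sox2, Slc1a3 and Notch1 also lay higher at P3 without overlap. Nes and Gli3 lay lower, Nes at 8.16, 8.02 and 8.40 after 8.94 and 9.36, and Pax6, Hes1, Hes5 and Vim overlapped. The part of these markers was not tested. Without either CSMN P14 array 5 genes rose and 5 fell. Rises numbered 2 without CSMN E18 replicate 1 or P3 replicate 3 and 0 without E18 replicate 2. Falls numbered 0 without CSMN P3 replicate 1 or 2 or either CSMN P6 array, and 1 without any 1 array of CPN or CTPN or without CSMN E18 replicate 2.

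The difference between the 2 changes was P3 minus E18 in CPN minus that in CSMN. It passed the test for 25 genes, all more negative in CPN, and for 0 in the other direction (background 3.45% and 0.269%). Tpx2 was the 1 member higher at an unadjusted p under 0.05. The CSMN mean rose for some of the 25 genes and fell for others, so a difference can hold a rise in CSMN. The 14 genes that did not pass were Ccnd1, Ccne1, Ccne2, Cdk2, Cdk4, Mcm3, Mcm6, Pcna, Cdc6, Hells, Rrm2, Tyms, Aurka and Tpx2.

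**Figure D3:**
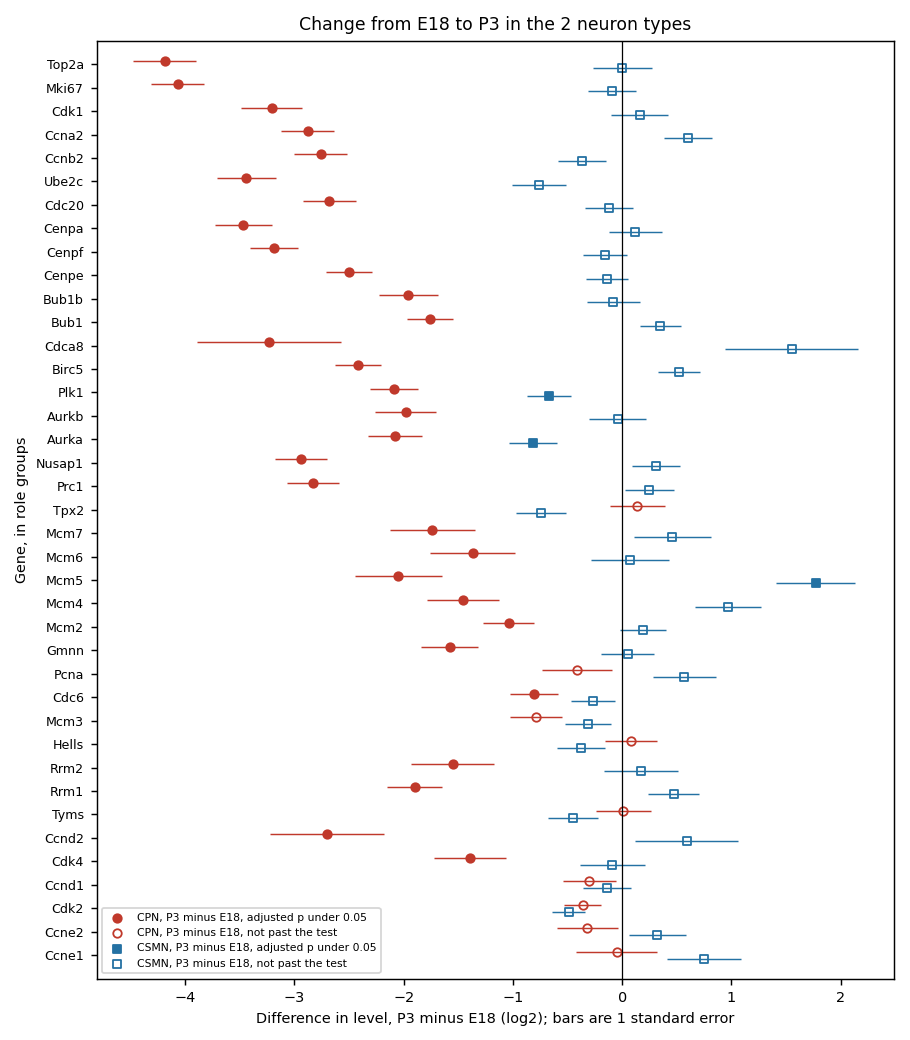
Difference in level from E18 to P3 (horizontal axis, log2) with its standard error for each of the 39 genes, in CPN (circles) and CSMN (squares); filled symbols passed the test at adjusted p under 0.05. The CPN symbols reach from -4.19 to 0.14, while the CSMN symbols lie between -0.82 and 1.77, with 3 filled.

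Members that persisted, with all 19 arrays above the bound, numbered 12: Cdk4, Ccnd1, Ccnd2, Ccne1, Ccna2, Mcm2, Mcm7, Pcna, Hells, Rrm1, Prc1 and Tpx2. This held for 49.2% of all genes, and 2 of the 12, Cdk4 and Pcna, also kept all arrays above 8.26. In 8 of the 12 both CPN E18 arrays were nonetheless the highest (Cdk4, Ccna2, Ccnd1, Ccnd2, Mcm2, Mcm7, Rrm1 and Prc1), and 4 had no such peak (Ccne1, Pcna, Tpx2 and Hells). Averaging every probe set gave 6 such genes.

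Pcna has 1 probe set. In CPN it read 10.82 and 11.82 (E18), 10.91 and 10.92 (P3), 10.81 and 10.47 (P6), 10.61 and 10.45 (P14). In CSMN it read 9.86 and 10.61 (E18), 11.01, 10.85 and 10.55 (P3), 10.74 and 10.75 (P6), 10.59 and 10.01 (P14), and in CTPN 10.29 and 10.05. The groups overlapped, and neither the step to P3 (-0.41 ± 0.32 in CPN, 0.57 ± 0.29 in CSMN) nor the step from P3 to P14 (-0.38 ± 0.32, -0.51 ± 0.29) passed the test.

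Cdk4, the D-cyclin kinase, ran through the stages in CPN as 11.21 and 11.27, 9.89 and 9.81, 10.12 and 9.02, and 9.0 and 8.81. In CSMN it was 9.79 and 10.04, then 10.36, 9.83 and 9.27, then 9.55 and 9.55, and 8.73 and 8.83 at P14, and in CTPN 8.79 and 8.56. All P14 values lay below all E18 and P3 values. Ccnd1, the D-type cyclin that partners it, was 7.97 and 8.18 in CPN at E18 and 6.93 to 7.96 (median 7.56) in the other arrays, a gap of 0.01. Another Ccnd1 probe set had means of 7.48 in CPN and 5.95 in CSMN at E18, and of 5.73 in CSMN at P14. Other probe sets of Mcm7, Ccne1 and Ccnd2 had group means down to 5.96, 6.33 and 3.88, below the bound.

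Ccna2 ranged from 6.76 to 7.85 (median 7.51) outside CPN at E18, Prc1 from 6.70 to 7.56, Mcm2 from 7.21 to 7.93 (median 7.76, with 8.77 and 8.88 in CPN at E18) and Rrm1 from 6.94 to 8.50 (median 7.94). On these probe sets the 4 genes lay above the bound in the 17 arrays, with both CPN E18 arrays above the rest. Another Prc1 probe set had a mean of 8.02 in CPN at E18 and of 4.71 to 5.20 in the 8 other groups, and other probe sets of Ccna2, Mcm2 and Rrm1 had group means down to 6.50, 6.50 and 3.64. Tpx2 and Hells rest on probe sets that went against others of the same gene: Tpx2 ran from 7.46 to 8.92 and Hells from 7.48 to 8.29 over the 17 arrays, but 2 other Tpx2 probe sets averaged 5.19 and 5.38 there and 7.87 and 7.47 in CPN at E18, and another Hells probe set averaged 4.42 against 7.45.

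Such disagreement was common. Of the 29 genes with more than 1 probe set, 16 had another one that differed in whether both CPN E18 arrays were highest. For Mcm3, Tpx2 and Hells another probe set showed the CPN E18 peak that the brightest did not, by 1.86 to 3.27 for 3 Mcm3 probe sets. For 13 genes the brightest showed it and another did not. In CPN at E18 these other probe sets averaged below the bound, apart from sets of Cenpa (7.22), Ccnd1 (7.96), Ccnd2 (6.63) and Rrm1 (8.18). The lower ones ran from 3.96 (Rrm1) to 6.58 (Cenpf). Whether probe sets this low could show the peak was not tested. Further probe sets of Top2a, Ccnd1, Ccnd2, Mcm5, Mcm6, Rrm2 and Bub1b did show it. Those of Cenpf, Cenpa, Rrm1, Bub1, Aurka and Nusap1 did not. A single probe set served 10 of the 39 genes.

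Between P3 and P14 fewer of these genes changed. In CPN 2 genes rose and 4 fell, where 4.68% of all genes rose and 3.45% fell, and in CSMN 2 rose and 5 fell, where 4.45% rose and 8.16% fell. Rrm2 changed most and in both. CPN arrays gave 9.07 and 9.25 (P3), 9.55 and 8.63 (P6), 6.87 and 6.29 (P14). CSMN arrays gave 9.71, 9.37 and 9.02 (P3), 9.19 and 9.09 (P6), 6.78 and 5.82 (P14), and CTPN 7.65 and 7.09. No P14 array overlapped a P3 or P6 array. The fall was -2.58 ± 0.38 in CPN (adjusted p = 0.000558) and -3.07 ± 0.34 in CSMN (adjusted p = 7.82e-05), and both calls held in all 19 fits that left out 1 array. Another Rrm2 probe set fell with it, from 6.85 to 5.13 in CPN means and from 7.26 to 4.89 in CSMN means, and the remaining one had means of 5.78 to 6.53 over the 9 groups.

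Ccne1, the cyclin of the step into S phase, rose over the same interval. CPN arrays gave 7.97 and 7.90 (P3), 8.09 and 7.69 (P6), 9.90 and 9.22 (P14), and CSMN arrays 7.97, 8.14 and 8.38, then 9.23 and 8.32, then 10.03 and 9.22, with 9.12 and 9.45 in CTPN. At E18 it was 7.92 and 8.06 in CPN and 7.92 and 6.91 in CSMN. The rise was 1.62 ± 0.37 in CPN (adjusted p = 0.0138) and 1.46 ± 0.34 in CSMN (adjusted p = 0.0119). The CPN call was lost without either CPN P3 array or CPN P14 replicate 1 (adjusted p up to 0.188). The CSMN call held without each array but was lost with array weights and with the compared groups alone. The other Ccne1 probe set moved the same way, from 6.33 to 7.63 in CPN means and from 6.58 to 7.88 in CSMN means. Ccne2, below the bound throughout, rose in CPN from 5.39 and 5.11 to 6.48 and 6.48 (1.23 ± 0.28), a call lost without any 1 of the 4 arrays compared.

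Mcm7 fell from 10.44 and 10.18 to 8.86 and 8.71 in CPN (-1.53 ± 0.39) and from 10.08, 9.76 and 9.34 to 9.13 and 7.41 in CSMN (-1.46 ± 0.35). These calls were lost without any 1 of the 4 CPN arrays and, in CSMN, without P3 replicate 1 or P14 replicate 2. Array weights or the compared groups alone also ended the CSMN call of Mcm7 and those of Cdk4, Rrm1 and Cdca8 given below. Mki67 and Top2a fell further in CPN, by 1.34 ± 0.24 and 1.23 ± 0.29. The Mki67 call held without each array, and the Top2a call was lost without any of the 4 arrays compared. In CSMN, Cdk4 (-1.04 ± 0.30), Rrm1 (-0.81 ± 0.23) and Cdca8 (-2.22 ± 0.61) fell and Cenpa rose (1.04 ± 0.24). The Cenpa call was lost with averaged probe sets (0.15), without the probe sets marked for shared probes, with array weights and with the compared groups alone, and another Cenpa probe set went from 6.32 to 4.74 in CSMN means. All 3 falls were lost without CSMN P14 replicate 2, which held the lowest value of Rrm1 and of Cdca8 (5.31, against 8.34 in replicate 1). Those of Rrm1 and Cdca8 were also lost without any CSMN P3 array, and that of Cdk4 without CSMN P3 replicate 1 or 2, either CSMN P6 array or either CPN P3 array. Other Cdca8 probe sets had CSMN means of 7.54 and 5.60 at P3 and 7.49 and 6.01 at P14, and without the probe sets marked for shared probes the difference was 0.42. The count of falls in CSMN was 9 without P14 replicate 1, 1 without P14 replicate 2 or P3 replicate 1, 2 without P3 replicate 2 and 3 without P3 replicate 3, and rises numbered 6 without P14 replicate 1. In CPN the count of rises was 0 without either P3 array or P14 replicate 1 and 1 without P14 replicate 2, and falls numbered 2 without any of the 4.

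**Figure D4:**
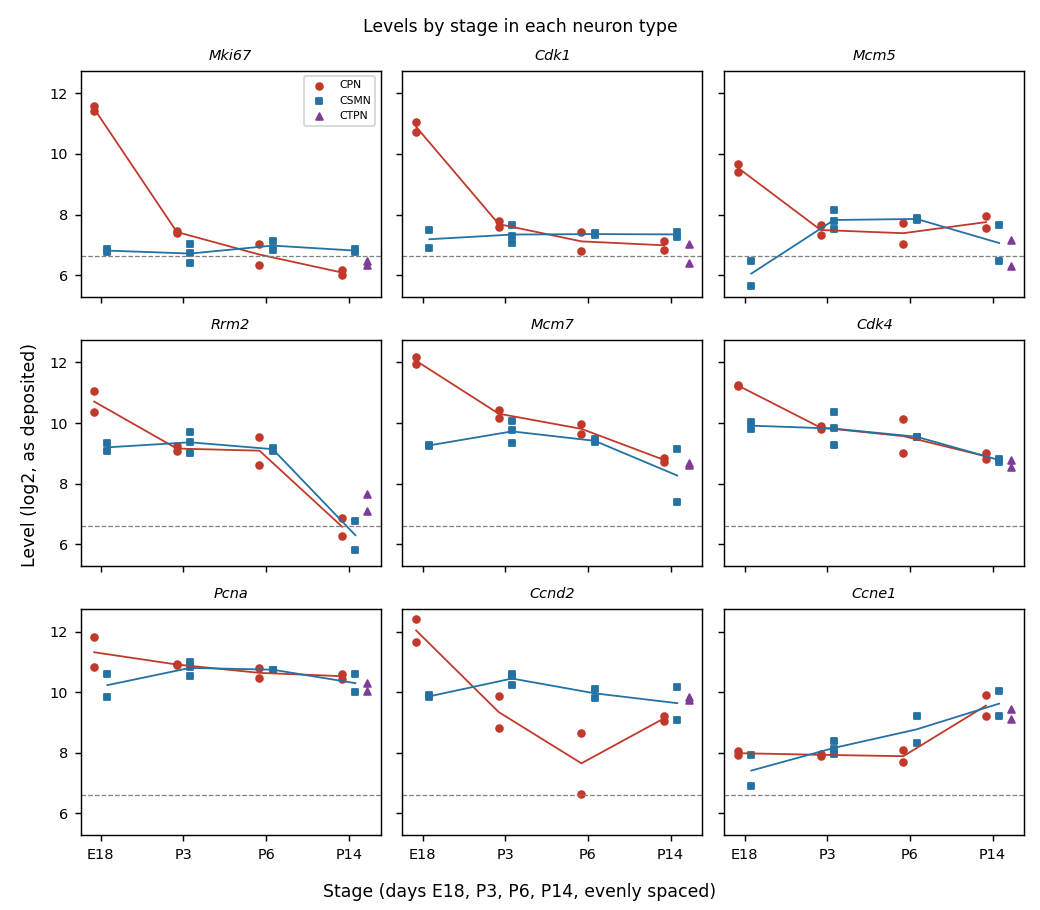
Level (log2) of 9 genes by stage in CPN (circles), CSMN (squares) and CTPN (triangles, P14 only); each symbol is 1 array, lines join group means, and the dashed line is the bound of 6.62. Mki67, Cdk1 and Mcm5 drop from E18 to P3 in CPN, Rrm2 drops between P6 and P14 in both types, Ccne1 is highest at P14, and Pcna stays between 9.86 and 11.82.

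After birth few of these genes passed the test between types. In the mean of P3, P6 and P14, CPN minus CSMN, 1 of the 39 genes was higher, 1 lower and 37 did not pass the test, where 2.02% of all genes were higher and 2.08% lower, and the median difference was -0.03. Ccnd2 was lower in CPN, at 9.88 and 8.81, 6.65 and 8.66, and 9.23 and 9.05 over the 3 stages, against 10.23, 10.53 and 10.60, 10.12 and 9.81, and 10.18 and 9.10 in CSMN. The difference was -1.30 ± 0.29 (adjusted p = 0.0173). It was lost without CPN P3 replicate 2, CPN P14 replicate 2 or CSMN P6 replicate 1. Ccnd2 peaked in CPN at E18 and was lowest in CPN at P6, where the 2 arrays lay 2 log2 units apart.

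Mcm6 was higher in CPN, at 8.15 and 8.18, 8.39 and 8.03, and 7.08 and 6.95, against 6.94, 7.26 and 7.18, 7.20 and 7.08, and 7.39 and 5.67 in CSMN. At P3 and P6 the types did not overlap, and at P14 they did. The difference was 0.87 ± 0.22 (adjusted p = 0.0389), and the call held in 6 of 19 fits that left out 1 array. It was lost without any 1 array of CPN or CSMN from P3 or P6, of CPN from P14, or of CTPN, which left 0 higher genes. Without CSMN P14 replicate 1, 3 genes were higher and 3 lower. The lower count was 2 without either E18 array of CPN or CSMN or without CSMN P14 replicate 2, and 0 without CPN P3 replicate 2, CPN P14 replicate 2 or CSMN P6 replicate 1.

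CTPN come from the visual cortex per the labels and the others from the sensorimotor cortex, so neuron type and area cannot be told apart in this comparison. None of the 39 genes passed the test by limma: 0 were higher and 0 lower than in CSMN (0.137% and 0.0550% of all genes), and 0 and 0 against CPN (0.456% and 0.605%). At an unadjusted p under 0.05 there were 2 higher and 4 lower against CSMN and 0 and 2 against CPN. The nearest was Birc5, at 5.53 and 5.14 in CTPN and 6.37 and 6.47 in CSMN, a difference of -1.08 ± 0.21 (adjusted p = 0.0522). Without CSMN P14 replicate 1, 7 genes were higher and 5 lower in CTPN than in CSMN.

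The wider machinery was read from 9 lists with 129 genes outside the 40, of which 128 were measured. At E18, 55 of the 128 were higher in CPN than in CSMN and 73 did not pass the test, where 8.94% of all genes were higher, with a median difference of 0.78. From E18 to P3 48 fell and 1 rose in CPN, where 4.22% of all genes fell and 3.86% rose. In CSMN 2 fell and 9 rose, where 2.46% of all genes fell and 7.93% rose. The 1 that rose in CPN was Cdk5r2, an activator of the neuronal kinase Cdk5 (1.36 ± 0.33).

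Condensin and cohesion genes had the largest share, 9 of 12 higher at E18: Smc4, a condensin ATPase, was 10.76 and 11.54 in CPN and 6.37 and 6.68 in CSMN (4.62 ± 0.40), Ncapd2 differed by 3.08 ± 0.37 and Cdca5 (sororin) by 2.93 ± 0.26. Of 14 mitotic kinesin and cytokinesis genes 8 were higher, led by Ect2 (3.64 ± 0.38), Kif22 (3.48 ± 0.22) and Cep55 (2.76 ± 0.33). Of 20 DNA polymerase and fork genes 10 were higher, led by Rpa3 (2.36 ± 0.28), Pold2 (2.21 ± 0.38) and Lig1 (1.83 ± 0.22), and of 18 further kinetochore and checkpoint genes 9, led by Incenp (2.80 ± 0.31), Nuf2 (2.37 ± 0.21) and Spc25 (2.27 ± 0.30).

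Among 15 origin recognition and firing genes 4 were higher, with Cdt1 (2.59 ± 0.43), Dbf4 (2.56 ± 0.29) and Gins2 (1.39 ± 0.22) first, and the median was 0.41. Among 15 other cyclins, kinases and phosphatases 6 were higher, with Cks2 (4.95 ± 0.43), Cdk6 (3.45 ± 0.30) and Cdc25c (2.60 ± 0.42) first. Among 15 Rb and E2F genes 5 were higher, with Rbl1 (p107) at 3.29 ± 0.23, Rb1 at 1.40 ± 0.38 and Tfdp2 at 1.06 ± 0.27. Of 13 anaphase-promoting complex genes only Cdc16 (0.90 ± 0.23) and Anapc13 (0.83 ± 0.24) passed the test, and the median difference was 0.63.

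Cdc25c, a phosphatase that activates Cdk1, had a further high level in one neuronal group: it was 9.0 and 9.26 in CSMN at P14, 8.30 and 8.79 in CPN at E18 and 5.32 to 7.48 in the other arrays. It rose from P3 to P14 in CSMN by 2.79 ± 0.38 (adjusted p = 0.000358) and was lower in CTPN than in CSMN at P14 (-2.53 ± 0.42, adjusted p = 0.0256). Both calls rest on the CSMN P14 arrays and were not checked without each. Cdc25c was named here after its values were seen.

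The 6 CDK inhibitors, which hold the cycle back, did not move as a group at E18. Cdkn1b (p27) was higher in CPN than in CSMN by 1.60 ± 0.35 and Cdkn2c (p18) by 1.16 ± 0.25, and both fell in CPN by P3 (-1.35 ± 0.35 and -1.37 ± 0.25). Cdkn1a (p21), Cdkn1c (p57), Cdkn2d (p19) and Cdkn3 differed by 0.27 ± 0.22, 0.27 ± 0.43, -0.23 ± 0.32 and 0.29 ± 0.34 and did not pass the test. Cdkn1c was high at E18 in both types, at 10.06 and 9.89 in CPN and 9.77 and 9.65 in CSMN. It fell from P3 to P14 in CPN (-3.81 ± 0.43) and in CSMN (-2.22 ± 0.39). The CSMN P14 arrays read 6.14 and 7.55, and the CSMN call was not checked without each. Cdkn1a rose from P3 to P14 in CPN, from 8.44 and 8.54 to 9.95 and 9.77 (1.36 ± 0.22), and was lower in CTPN than in CPN at P14 (-1.66 ± 0.22, adjusted p = 0.00132).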

How the data were processed

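The authors deposited RMA log2 values for each probe set, per the submitters' processing notes, with no version given; RMA evens out the distributions of arrays, so a shift shared by most genes would not show. They were used as deposited, and 0 columns were left out. Of 45101 probe sets, 64 are controls, 34945 carry 1 symbol, 932 several and 9160 none; the brightest single-symbol probe set stood for each of 18193 genes, of which 18031 matched RefSeq by gene ID. Group means of the 9 groups were estimated with limma from the 19 arrays together (degrees of freedom: 10 residual, 4.46 prior). In 10 comparisons, 2-sided moderated p-values were adjusted by Benjamini-Hochberg across every gene, and 0.05 was the threshold. The model was tested on simulated data. Standard errors are the model's.

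Per-array values were given for the members with the largest and smallest difference between CPN at E18 and the other 8 groups in each role group, for members above the bound in all arrays, and for members past the test after birth; other values are given by range. From each pathway list up to 3 genes past the test were named, and all CDK inhibitors. The members and lists were chosen with earlier results of these data known. Alternatives were quantile and cyclic loess normalization, brighter genes only, averaged or unshared probe sets, an intensity trend, array weights, a minimum difference, the compared groups only, a replicate block, another bound, and leaving out each array. Software was limma 3.58.1 in R 4.3.3, and matplotlib 3.10.9 in Python 3.11.15 for figures.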

Additional observations from a re-analysis of the deposited data

Results flagged for a closer look

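For 25 genes the change from E18 to P3 differed between CPN and CSMN. The difference of the 2 changes was itself tested in the limma model, and it was negative for each gene. A rise in CSMN is part of it for some genes. The CSMN mean went from 7.50 to 9.05 for Cdca8 and from 6.05 to 7.82 for Mcm5, while that of Plk1 fell from 6.62 to 5.95. Among the mitotic kinases and passengers, the difference was -4.77 ± 0.90 for Cdca8, -2.93 ± 0.28 for Birc5, -1.94 ± 0.38 for Aurkb and -1.42 ± 0.29 for Plk1. For the proliferation antigen Mki67 it was -3.97 ± 0.33 and for Top2a -4.20 ± 0.39. The kinetochore and checkpoint genes gave -3.59 for Cenpa, -3.03 for Cenpf, -2.37 for Cenpe, -2.11 for Bub1 and -1.88 for Bub1b. Ccna2 gave -3.47, Cdk1 -3.37 and Ccnb2 -2.39, and the D-type cyclin Ccnd2 gave -3.28. Among replication genes Mcm5 gave -3.82, Mcm4 -2.42, Mcm7 -2.20, Gmnn -1.63 and Mcm2 -1.24, and the reductase subunit Rrm1 gave -2.37. Nusap1 gave -3.25, Prc1 -3.08, Ube2c -2.68 and Cdc20 -2.56. Calls were lost in at least 1 fit that left out an array for Ccnd2, Mcm2, Mcm7, Bub1b, Aurkb, Plk1 and Gmnn. Without the probe sets marked for shared probes, those of Top2a and Cenpa were lost (-0.93 and -0.68). Averaged probe sets ended those of Cenpa and Rrm1, and the Mcm2 call was lost under 4 other settings.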

How the results depend on the processing

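Counts are of the 39 genes unless all genes are named, with the reported value in brackets. Quantile normalization gave 2 (1) rises and 1 (2) fall from E18 to P3 in CSMN, 0 (1) higher in postnatal CPN and 1 (0) lower in CTPN than in CSMN. Cyclic loess gave 3 rises and 0 falls in CSMN, with 994 (1890) calls over all genes, and 2 higher and 2 (1) lower in postnatal CPN. With brighter genes alone, 18 members were tested: at E18 14 (30) were higher, all genes 1331 (2350); against the 8 groups 15 (33) were higher; to P3 13 (30) fell in CPN and 2 rose and 0 fell in CSMN; the 2 changes differed for 9 (25), all genes 351 (676); to P14 1 (2) rose and 2 (4) fell in CPN and 1 (2) rose in CSMN; CTPN gave 19 (35) and 119 (193) calls over all genes against CSMN and CPN. Averaged probe sets gave 0 (1) lower at E18, 1 rise and 3 (5) falls to P14 in CSMN, 2 lower in postnatal CPN, 1 lower in CTPN than in CSMN, 10 (4) confined and 6 (12) persisting genes, and Tpx2 at E18 turned to 0.86. Unshared probe sets gave 0 rises to P3, and 1 rise and 3 falls to P14, in CSMN, and Cdca8 turned to 0.42. The intensity trend gave 1 lower in CTPN than in CSMN. Array weights gave 0 lower at E18, all genes 992; 2350 (1470) calls over all genes to P3 in CPN; 2 rises and 0 falls in CSMN; to P14 9 falls in CPN, all genes 5436 (1480), and 0 rises and 1 fall in CSMN, all genes 203 (2295); 0 lower in postnatal CPN; and 0 and 588 calls over all genes for CTPN against CSMN and CPN. A minimum difference of 1 gave 0 lower at E18, 2057 (3630) calls over all genes against the 8 groups, 0 falls to P3 in CSMN, all genes 1056, and 0 higher in postnatal CPN, all genes 310 (747). The compared groups alone gave 0 lower at E18, all genes 843; 2 rises and 0 falls to P3 in CSMN; to P14 13 falls in CPN, all genes 5215, and 0 rises and 1 fall in CSMN, all genes 178; 0 higher and 2 lower in postnatal CPN; and 0 and 359 calls over all genes for CTPN. It does not apply to the 8-group contrast. The replicate block gave 2 rises to P3 in CSMN and 0 higher in postnatal CPN, ended the fall of Mcm6 to P3 in CPN, and moved no other count of members by over 1.5 times. The labels give replicate numbers no shared litter or day; over 36 pairs of groups the correlation of same-numbered arrays' deviations ran from -0.22 to 0.59 (median 0.11) and passed 0.1 in 19, so pairing was not shown for every pair and the fit without the block was reported. The bound of 8.26 gave 17 confined and 2 persisting genes. The causes were not tested, except that fewer genes were tested among the brighter ones.

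Leaving out each array gave 25 to 33 higher and 0 to 1 lower at E18 (all genes 1121 to 4253), 28 to 33 higher against the 8 groups (2062 to 4783), 21 to 31 falls to P3 in CPN (576 to 2310), 0 to 5 rises and 0 to 5 falls in CSMN (621 to 4815), 18 to 28 differing changes (283 to 1436), 0 to 2 rises and 2 to 5 falls to P14 in CPN (536 to 2307), 2 to 6 rises and 1 to 9 falls in CSMN (1297 to 8107), 0 to 3 higher and 0 to 3 lower in postnatal CPN (502 to 3098), 0 to 7 higher and 0 to 5 lower in CTPN than in CSMN (12 to 5143), 51 to 395 calls over all genes for CTPN against CPN, 4 to 6 confined genes, 12 to 13 persisting ones and 30 to 33 with both CPN E18 arrays highest. No detection calls were used, so levels near 6.62 cannot be called present or absent.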
